A study of Homo sapiens with 2 samples.

Results

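The mitochondrial ribosomal proteins were taken as the genes whose whole symbol is MRPL or MRPS, a number and at most 1 closing letter A, B or C, read by array probe sets that the platform annotation assigns to 1 gene only. They were 75 genes, 48 of the large subunit (MRPL) and 27 of the small subunit (MRPS), with 140 probe sets, out of 19775 genes with 41091 such probe sets on the array. The 2 samples were MEG-01 cells, a human megakaryoblastic line of chronic myeloid leukemia (CML), transduced with a lentivirus for GAS2DN or with the control Venus lentivirus, and sorted as fluorescent cells. GAS2DN is a truncated, dominant negative form of growth arrest specific 2 (GAS2), an actin-associated protein and calpain inhibitor, and a spleen focus forming virus promoter drove the transgene. Both samples came from this 1 cell line, grown in RPMI1640 with serum, and RNA from 3 independent extracts of each was pooled in equal amounts and hybridised to 1 Affymetrix U133 Plus 2.0 array per condition.

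Mitochondria carry their own ribosome, which translates only the messages of the mitochondrial genome and so makes core subunits of the respiratory chain and of ATP synthase. Its RNAs are encoded in the mitochondrion, but all of its proteins are encoded in the nucleus, made in the cytosol and imported. The large subunit forms the peptide bond and passes the new chain to the inner membrane, and the small subunit binds the mRNA and decodes it. Many of the proteins have a relative in the bacterial ribosome and the others are found only in mitochondrial ribosomes.

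The signal was the linear MAS5 signal of a probe set, a robust mean over its probes, and each array was scaled to the same trimmed mean, 500.1 on both. The median signal over all probe sets was 69.1 on the GAS2DN array and 55.6 on the Venus array. A probe set was used when the brighter of its 2 signals reached the median of its own array, and a gene was counted as measured when its main probe set, the brightest on average over both arrays, did so. With 1 array per condition there is no replicate, no test and no p-value here, and each ratio describes these 2 RNA pools. GAS2 itself was read by 1 probe set, 205848_at, with signals of 34.7 in GAS2DN cells and 24.3 in Venus cells, both below the array medians, and the sources do not place this probe set relative to the truncation. The megakaryocytic markers had a summed signal of 16361 in GAS2DN cells and 12837 in Venus cells over the 6 of 9 listed genes that were measured. Of the 9, 7 had a probe set of their own. The sum was mostly ITGA2B, with 9238 in GAS2DN cells and 7149 in Venus cells, and NFE2, with 4295 and 2975. GATA1 went the other way, with 1516 in GAS2DN cells and 1617 in Venus cells. Of the markers of other cell types, 1 of 4 myelomonocytic, 1 of 3 lymphoid and 1 of 4 fibroblast genes were measured, with signals up to 259 in GAS2DN cells and 275 in Venus cells, and their part in the results below was not tested.

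The mitochondrial ribosomal proteins had nearly the same signals on both arrays. All 75 genes were measured, each with its main probe set at or above the median on both arrays, and the median log2 ratio of GAS2DN over Venus was 0.03, with a mean of 0.0008 and an SD between genes of 0.21. The ratio was above 0 for 44 genes and below 0 for 31. After centring the ratios on the median of all measured genes, it was above 0 for 33, and the members' median turned to -0.03. All measured genes had a median of 0.06 and an SD of 0.89 over 13086 genes, many of them much dimmer. Among the 6976 measured genes within the signal range of the members, the median was 0.02 and the SD 0.31. The share above 0 before centring was 58.7% for the members, 56.2% for all measured genes and 52.8% within that range. No gene was over 1.5-fold higher in GAS2DN cells and 1, MRPL32, was over 1.5-fold lower. In the background, 14.3% of measured genes were over 1.5-fold higher and 9.12% over 1.5-fold lower, and within the members' signal range these shares were 1.94% and 4.03%. For 75 genes, 0 and 1 lay below both sets of shares, but close to those within the signal range. The members were also brighter than that background, with a median of the mean log2 signals of 11.96 against 10.71. The spread of the log2 ratio fell with signal, as given below, so these counts are not read as a trait of the members. Less RNA per cell and a smaller share of cells with that RNA cannot be told apart in such bulk samples.

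**Figure D1:**
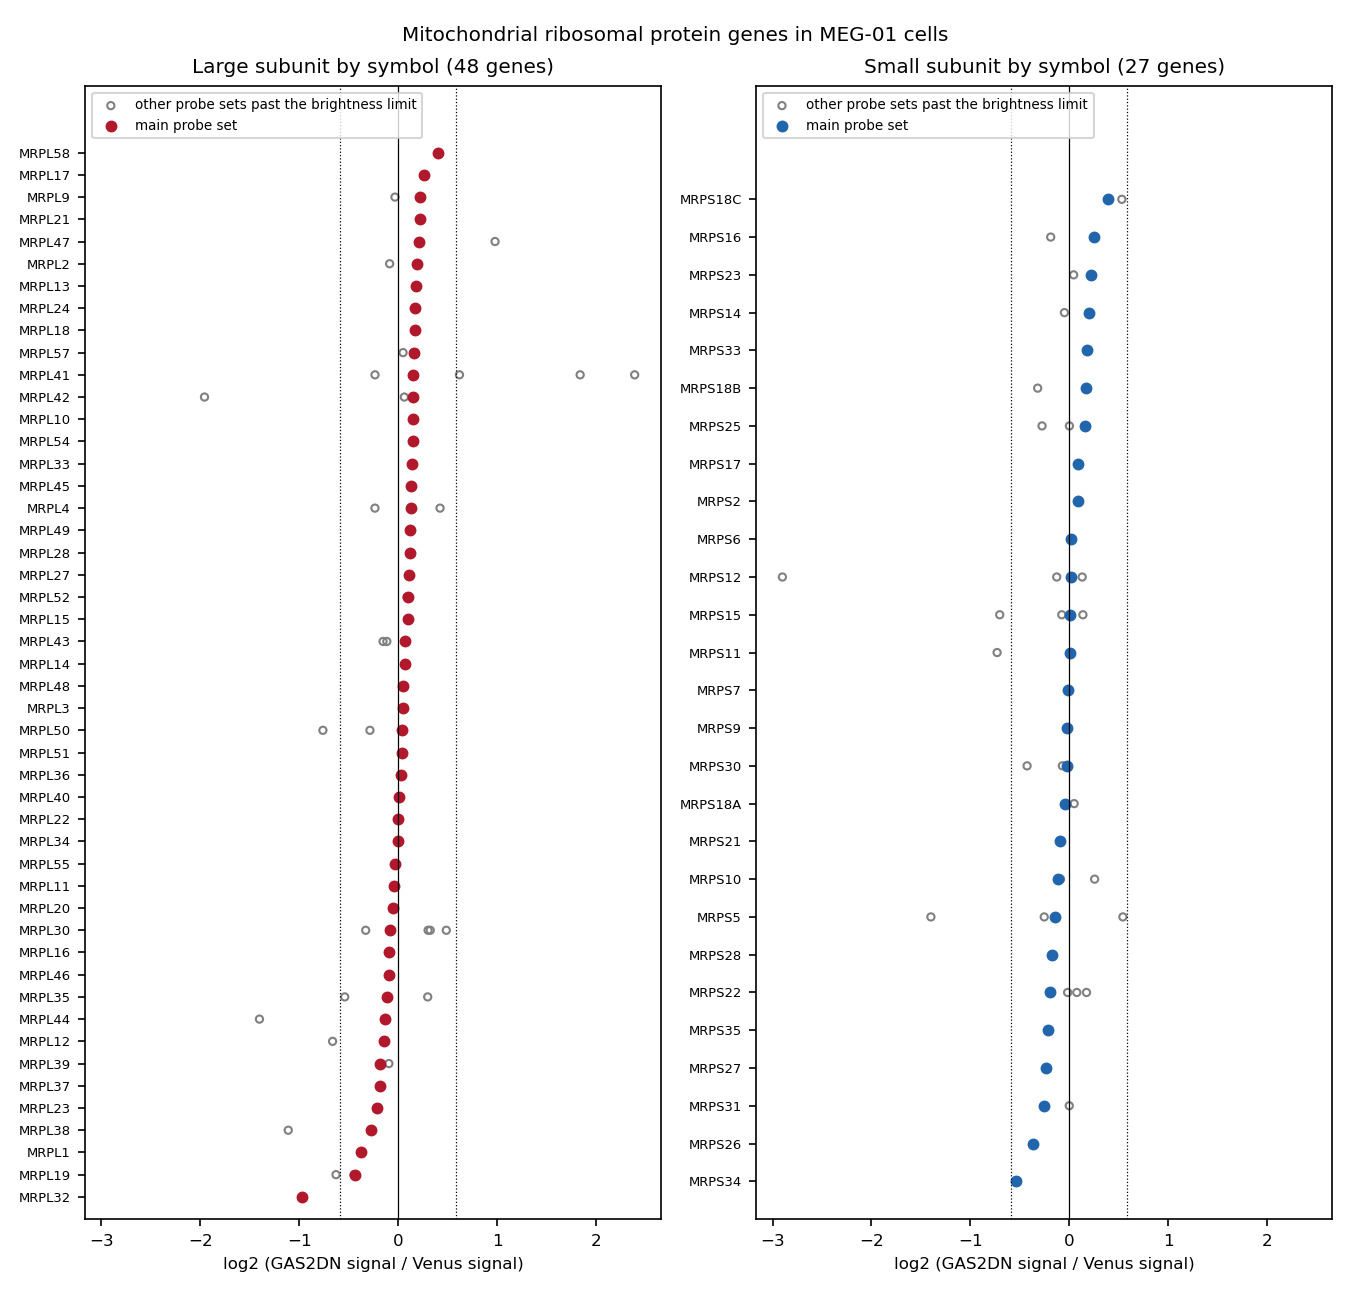
The log2 ratio of the GAS2DN signal over the Venus signal (horizontal axis) is plotted for each gene (vertical axis), with the 48 large-subunit genes on the left and the 27 small-subunit genes on the right. Filled points are main probe sets, open points are the other probe sets past the brightness limit, and dotted lines mark 1.5-fold. Only MRPL32, at -0.97, has its main probe set beyond a dotted line.

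Large and small subunit genes overlapped over most of their range. The median log2 ratio was 0.06 for the large subunit, with 31 of 48 genes above 0, and -0.01 for the small subunit, with 13 of 27 above 0. These were 64.6% and 48.1%, against 56.2% of all measured genes and 52.8% of those within the members' signal range. The large minus small difference of the medians was 0.07, and it has no replicate check. The SD between genes was 0.22 in the large and 0.21 in the small subunit. After centring, the medians were 0.0032 and -0.07 and the difference was the same. MRPS18A and MRPS30 keep small-subunit names but sit in the large subunit of the human mitochondrial ribosome. With both counted there, the medians were 0.05 for the large and 0.01 for the small subunit, and the difference was 0.04.

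MRPL32, a large-subunit protein that has to be cut by the m-AAA protease of the inner membrane before it joins the ribosome, had the lowest ratio of all members. Its only probe set, 225260_s_at, had a signal of 2405 in GAS2DN cells and 4720 in Venus cells, a ratio of 0.510 and a log2 ratio of -0.97. It was far brighter than the array median on both arrays, but no second probe set of the gene could be set beside it. The next lowest large-subunit gene was MRPL19, a relative of bacterial L19, which lies at the interface of the subunits. Its main probe set had a signal of 3766 in GAS2DN cells and 5086 in Venus cells, a log2 ratio of -0.43. Its other 2 probe sets had signals of 225 and 79.4 in GAS2DN cells and 306 and 123 in Venus cells, with log2 ratios of -0.45 and -0.63. MRPL19 was thus lower in GAS2DN cells by every probe set that reads it. MRPL1, the protein of the mobile stalk beside the exit site for tRNA, was read once, with a signal of 2751 in GAS2DN cells and 3567 in Venus cells and a log2 ratio of -0.37. MRPL38, a protein of the central protuberance found only in mitochondrial ribosomes, had a signal of 646 in GAS2DN cells and 784 in Venus cells, a log2 ratio of -0.28. Its second probe set was dim, with signals of 45.8 in GAS2DN cells and 98.9 in Venus cells.

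At the other end of the large subunit stood MRPL58, also known as ICT1, a ribosome-bound hydrolase that releases the chain from stalled ribosomes. Its 1 probe set had a signal of 3667 in GAS2DN cells and 2776 in Venus cells, a ratio of 1.32 and a log2 ratio of 0.40. MRPL17, which lies near the exit of the peptide tunnel, followed with a signal of 3034 in GAS2DN cells and 2538 in Venus cells, a log2 ratio of 0.26. MRPL9 had 5285 in GAS2DN cells and 4529 in Venus cells, a log2 ratio of 0.22, but its second probe set gave -0.03. MRPL21 had 4588 in GAS2DN cells and 3946 in Venus cells by its only probe set, a log2 ratio of 0.22. None of these 4 reached 1.5-fold.

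The large-subunit genes were also read by the place of their product, in groups that were drawn up after the values had been seen. The factor-binding stalk, which recruits the translation factors, had log2 ratios of 0.15 for MRPL10, -0.04 for MRPL11 and -0.14 for MRPL12. Around the peptidyl transferase centre, where the peptide bond forms, they were 0.20 for MRPL2, 0.05 for MRPL3, -0.09 for MRPL16 and 0.11 for MRPL27. The second probe set of MRPL2, with 402 in GAS2DN cells and 426 in Venus cells, gave -0.09. At the exit tunnel and the membrane anchor, 5 of 6 genes were above 0, with a median of 0.13. This group holds MRPL45, which ties the ribosome to the inner membrane and had a log2 ratio of 0.13, and MRPL23, the 1 gene below 0, at -0.21. MRPL4 had 0.13, with -0.23 and 0.42 from its other probe sets. The central protuberance had a median of 0.03 over 6 genes, and it held MRPL58 as its highest and MRPL38 as its lowest gene. The 21 large-subunit genes outside these groups and the genes named by rule lay between -0.19 for MRPL37 and 0.21 for MRPL47, with 14 above 0. None of the groups moved as one, since each held genes on both sides of 0.

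In the small subunit the lowest gene was MRPS34, a protein found only in mitochondrial ribosomes and needed for a stable small subunit. Its only probe set had a signal of 1736 in GAS2DN cells and 2519 in Venus cells, a ratio of 0.689 and a log2 ratio of -0.54, which became -0.59 and passed 1.5-fold after centring. MRPS26 had a signal of 1832 in GAS2DN cells and 2354 in Venus cells, a log2 ratio of -0.36. MRPS31 had 3650 in GAS2DN cells and 4342 in Venus cells, a log2 ratio of -0.25, while its second probe set past the limit gave -0.00. MRPS27, a pentatricopeptide repeat protein, had 2961 in GAS2DN cells and 3495 in Venus cells, a log2 ratio of -0.24. These 4 genes all belong to the proteins without a bacterial relative. Over the 9 such proteins of the small subunit by structure the median was -0.21 with 3 above 0, and over the 16 with a bacterial relative it was 0.02 with 10 above 0. In the large subunit the 19 mitochondrial-only proteins and the 31 with a bacterial relative both had a median of 0.05. The small-subunit classes overlapped, since the mitochondrial-only genes ranged from -0.54 to 0.22 and the others from -0.17 to 0.40. This split was read by main probe sets only and was not tested. In the mitochondrial-only class, MRPS22 counted at -0.20, but its other probe sets, also bright, gave 0.08, -0.02 and 0.17. MRPS25 counted at 0.16, with -0.28 and 0.00 from its other probe sets.

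The highest small-subunit gene was MRPS18C, one of 3 human relatives of bacterial S18. It had a signal of 5671 in GAS2DN cells and 4310 in Venus cells, a ratio of 1.32 and a log2 ratio of 0.40. Its second probe set, at 134 in GAS2DN cells and 92.8 in Venus cells, gave 0.53. MRPS18B had 4887 in GAS2DN cells and 4358 in Venus cells, a log2 ratio of 0.17, but its second bright probe set, 217408_at, had 4012 in GAS2DN cells and 5005 in Venus cells and gave -0.32. MRPS18A, the paralog in the large subunit, had 1684 in GAS2DN cells and 1739 in Venus cells, with log2 ratios of -0.05 and 0.05 from its 2 probe sets. Of the 3 paralogs, MRPS18C was thus the 1 with both usable probe sets on the same side. MRPS16 followed at 2370 in GAS2DN cells and 1993 in Venus cells, a log2 ratio of 0.25, with -0.19 from its second probe set. MRPS23 had 6544 in GAS2DN cells and 5623 in Venus cells, a log2 ratio of 0.22, with 0.04 from its second probe set. MRPS14 had 3075 in GAS2DN cells and 2672 in Venus cells, a log2 ratio of 0.20, with -0.05 from its second. The genes of the decoding and tRNA sites were almost level, with log2 ratios of -0.01 for MRPS7, -0.02 for MRPS9 and 0.02 for MRPS12. Along the mRNA path they were 0.09 for MRPS2, -0.15 for MRPS5 and 0.01 for MRPS11, whose dim second probe set gave -0.73. The other 11 small-subunit genes lay between -0.21 for MRPS35 and 0.18 for MRPS33, with 5 above 0.

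**Figure D2:**
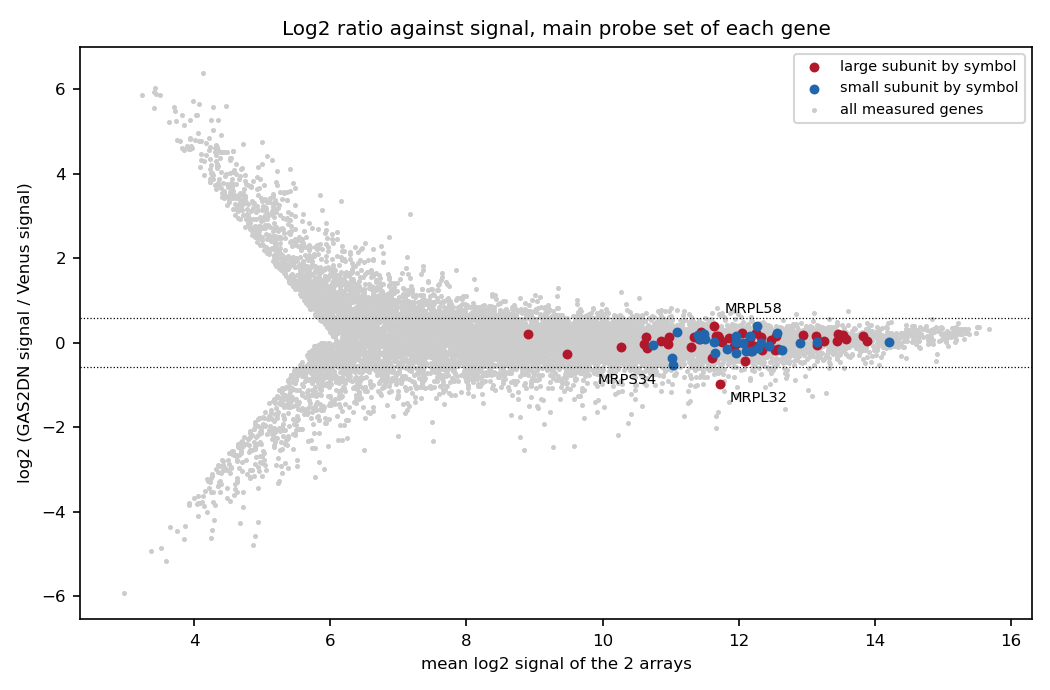
Each point is the main probe set of 1 measured gene, with its mean log2 signal of the 2 arrays on the horizontal axis and the log2 ratio of GAS2DN over Venus on the vertical axis. Large-subunit genes are red, small-subunit genes blue and all 13086 measured genes grey; the empty wedge on the left comes from the brightness limit. The 75 coloured points lie at mean log2 signals of 8.91 to 14.2, where the grey cloud is narrow.

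Probe sets of the same gene often disagreed. Of the 140 probe sets, 132 were past the brightness limit and 8 below it, and 12 of the 132 reached the median on 1 array only. Of the 132, 4 were over 1.5-fold higher and 11 over 1.5-fold lower, against 15.5% and 11.9% of all single-gene probe sets past the limit. Of these 15, 9 reached the median on 1 array only, so that they passed through the array on which they were high. The spread followed the signal. The SD of the log2 ratio was 1.40 over the 27 probe sets with a mean log2 signal under 8 and 0.51 over the 20 between 8 and 10. It was 0.23 over the 50 between 10 and 12 and 0.19 over the 43 above 12. Among all 140, 22 were past 1.5-fold either way, and 19 of these lay in the dimmest class.

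A total of 32 genes had 2 or more probe sets past the limit, and all of them pointed the same way in 12, above 0 in 5 and below 0 in 7. The median range within a gene was 0.44. MRPL57 agreed best among the genes with 4 probe sets, at 0.05 to 0.17. Within 5 genes the range was over 1, but only within MRPL42 and MRPL44 when each probe set had to reach the median on both arrays, a setting added after seeing the data. For MRPS12, the relative of bacterial S12 at the decoding site, 213840_s_at had a signal of 14.5 in GAS2DN cells, well below that array's median, and 108 in Venus cells, and passed through the Venus array only. Its other 3 probe sets lay between -0.13 and 0.13. MRPL41, found only in mitochondrial ribosomes, had 3 probe sets past the limit and over 1.5-fold higher, of which 225425_s_at alone reached the median on both arrays. Its main probe set had 9483 in GAS2DN cells and 8516 in Venus cells, a log2 ratio of 0.16, and this second one had 5188 in GAS2DN cells and 3375 in Venus cells, a log2 ratio of 0.62. The dim 230034_x_at had 144 in GAS2DN cells and 27.5 in Venus cells and 225423_x_at had 96.8 in GAS2DN cells and 27.0 in Venus cells, so that both passed through the GAS2DN array only. The last probe set gave -0.23. MRPL42 had 0.16 and 0.06 by its bright probe sets, but 242289_at had 324 in GAS2DN cells and 1258 in Venus cells, a log2 ratio of -1.96. MRPL44, a protein with a double-stranded RNA binding domain, had -0.13 by its main probe set and -1.40 by 218202_x_at, at 131 in GAS2DN cells and 345 in Venus cells. MRPS5 had -0.15 and -0.25 by its bright probe sets and -1.40 and 0.54 by its dim ones. Of these, 236779_at, at 36.3 in GAS2DN cells and 95.6 in Venus cells, passed through the Venus array only. The other dim one, 237560_at, at 69.4 in GAS2DN cells and 47.7 in Venus cells, passed through the GAS2DN array only.

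**Figure D3:**
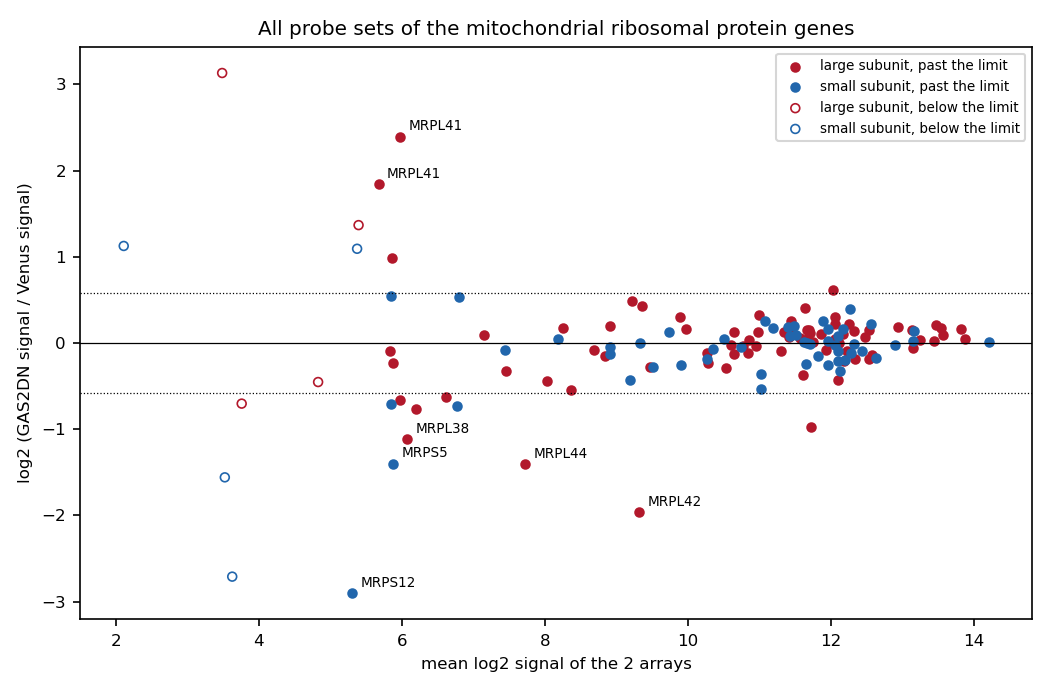
All 140 probe sets of the mitochondrial ribosomal protein genes are plotted by mean log2 signal (horizontal axis) and log2 ratio of GAS2DN over Venus (vertical axis), red for the large and blue for the small subunit, with open points below the brightness limit. Dotted lines mark 1.5-fold, and symbols name the probe sets past the limit with a ratio over 2-fold either way. The points spread out below a mean log2 signal of 8, where the SD is 1.40, and close up above 12, where it is 0.19.

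Probe sets that the annotation assigns to several genes were not counted as members. The one for MRPL53 and CCDC142 had 4288 in GAS2DN cells and 4231 in Venus cells, the one for MRPS24 and its readthrough with URGCP had 9527 in GAS2DN cells and 9614 in Venus cells, and one for MRPL51 and SPTLC1 had 2066 in GAS2DN cells and 1816 in Venus cells. All 3 had log2 ratios between -0.01 and 0.19.

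The ribosomal proteins that carry other names lay in the same range by their main probe sets. DAP3 had a log2 ratio of 0.02, CHCHD1 -0.04 and GADD45GIP1 -0.16, all by their main probe sets. The second probe set of DAP3, at 1094 in GAS2DN cells and 714 in Venus cells, gave 0.62. PTCD3, a pentatricopeptide repeat protein of the small subunit, had 3490 in GAS2DN cells and 2718 in Venus cells, a log2 ratio of 0.36, but its other 3 probe sets gave 0.05, -0.00 and -0.29. The translation factors that work on the ribosome had a median of 0.03 over 13 of 14 listed genes, with 7 above 0 and none over 1.5-fold. MTIF2, the initiation factor that places the first tRNA, was the highest at 6907 in GAS2DN cells and 5238 in Venus cells, a log2 ratio of 0.40. GFM1, the elongation factor that moves the ribosome along the mRNA, was the lowest at 2806 in GAS2DN cells and 3396 in Venus cells, a log2 ratio of -0.28, and its 5 probe sets past the limit were all below 0. The factors that assemble the ribosome or modify its RNA had a median of -0.02 over 28 of 29 listed genes, with 12 above 0 and none over 1.5-fold. NSUN4, an RNA methyltransferase of ribosome assembly, was the lowest by its main probe set, at 1318 in GAS2DN cells and 1900 in Venus cells, a log2 ratio of -0.53. Its other 3 usable probe sets gave -0.03, 0.01 and 0.73, the first with 1348 in GAS2DN cells and 1378 in Venus cells.

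Among the regulators of mitochondrial biogenesis, 12 of 13 were measured and the median was 0.01. TFB2M, which opens the promoter for the mitochondrial RNA polymerase, was the 1 gene of this list over 1.5-fold on the deposited scale. Its main probe set had a signal of 2287 in GAS2DN cells and 6057 in Venus cells, a ratio of 0.378 and a log2 ratio of -1.40, and its other 3 probe sets were below the limit. TFAM, which packages mitochondrial DNA and works with TFB2M at the promoter, had 2588 in GAS2DN cells and 3788 in Venus cells, a log2 ratio of -0.55, which became -0.61 and passed 1.5-fold after centring. Its other probe sets gave -0.45, -0.44 and -0.00. Among the nuclear factors, GABPA and its partner GABPB1 had log2 ratios of 0.17 and -0.34, with 0.12 and -0.37 from their second probe sets. MYC had 0.12. YY1 had 0.20 by its main probe set, while its other probe sets gave -0.16, -0.03, 0.13, 0.70 and -0.41. NRF1 had -0.18 by its main probe set and 0.71 by its second, at 295 in GAS2DN cells and 181 in Venus cells. Its last probe set past the limit gave -0.01. Of the 13 mitochondrially encoded protein genes, a list chosen after the values were seen, 7 had a probe set of their own, 3 of them were above 0 and the median was -0.04. ND6, the complex I subunit encoded on the light strand, had 3725 in GAS2DN cells and 7668 in Venus cells, a log2 ratio of -1.04, and COX1 had -0.42.

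Of the nuclear-encoded respiratory chain subunits, 41 of 52 were above 0, or 78.8%. The share was 56.2% of all measured genes and 52.8% of those within the members' signal range. The median log2 ratio of these subunits was 0.15, which was 0.12 above the mitochondrial ribosomal proteins. That difference was 0.07 after loess or quantile normalization. By the second-brightest probe set the median of these subunits was 0.01, with 12 of 24 above 0. Without _s_at and _x_at probe sets it was 0.09, with 26 of 43 above 0. NDUFB3, an accessory subunit of complex I, was the 1 gene of this list over 1.5-fold, at 11253 in GAS2DN cells and 6971 in Venus cells, a log2 ratio of 0.69. The cytosolic ribosomal proteins, which translate all nuclear messages, had a median of 0.24, with 48 of 53, or 90.6%, above 0. Their median stood 0.21 above that of the mitochondrial set. That difference was 0.10 after loess and -0.02 after quantile normalization, where the cytosolic median was 0.01 with 27 of 53 above 0. By the second-brightest probe set the cytosolic median was 0.12, with 17 of 24 above 0. RPL7 and RPL36A were the 2 cytosolic genes over 1.5-fold lower, both by dim probe sets, with 94.6 in GAS2DN cells and 184 in Venus cells for RPL7 and 42.3 in GAS2DN cells and 75.2 in Venus cells for RPL36A. The other 2 probe sets of RPL7 were far brighter and gave 0.27 and 0.12, so that its median over probe sets was 0.12. RPL36A was at -0.12 with signals below the array median raised to it, and RPL7 at -0.55 and RPL36A at -0.23 with the array median added, and these calls ended there.

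**Figure D4:**
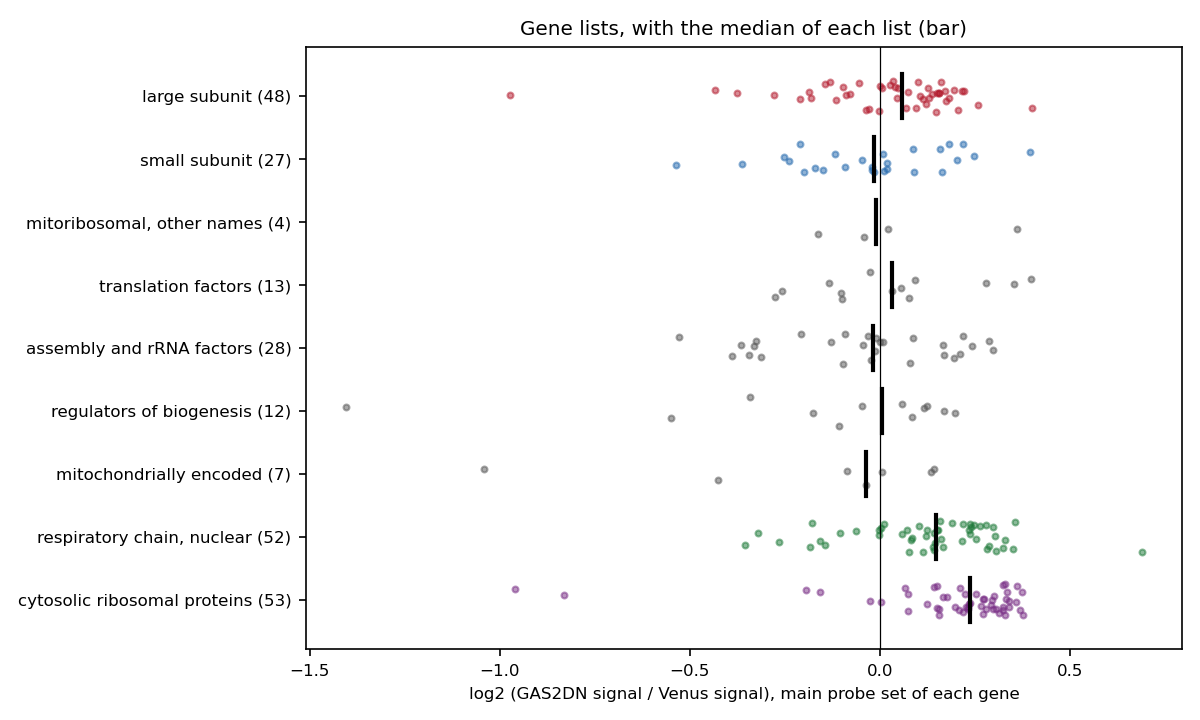
Each point is the log2 ratio of GAS2DN over Venus of 1 measured gene (horizontal axis), grouped by list (vertical axis, number of genes in brackets), and the bar marks the median of the list. The medians of the large subunit at 0.06 and of the small subunit at -0.01 lie beside those of the translation and assembly factors, and the cytosolic ribosomal proteins at 0.24 lie to the right on the deposited scale; after quantile normalization they were at 0.01.

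Promoters of these genes are printed here for the lowest and highest genes and for MRPL46, which starts near MRPS11 on the opposite strand. RefSeq promoter windows (GRCh38.p14, 250 bases before to 50 after the start) were matched by symbol for 67 of the 75 genes, 83 windows in all. The motifs were searched on both strands as exact letters, and matches are no more than descriptions. Each line shows 120 bases before to 30 after the start, with any motif in capitals. MRPL32 (chr7:42932256-42932405, plus strand) holds the NRF1 letters GCGCATGC. MRPS34 (chr16:1773105-1773254, minus strand) holds the ETS letters CCGGAAG 3 times, on the reverse strand. MRPL58 (chr17:75012550-75012699, plus strand) holds the ETS letters once here. MRPS18C (chr4:83455938-83456087, plus strand) holds none of the motifs in this stretch, and its NRF1, ETS and E-box letters lie farther before the start. MRPL46 (chr15:88467359-88467508, minus strand), whose start lies 320 bases from that of MRPS11 on the other strand, holds the YY1 letters AAGATGGC, which include a start codon's ATG.
MRPL32: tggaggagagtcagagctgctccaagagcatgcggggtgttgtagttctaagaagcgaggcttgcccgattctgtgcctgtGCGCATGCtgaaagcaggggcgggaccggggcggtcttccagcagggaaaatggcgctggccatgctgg
MRPS34: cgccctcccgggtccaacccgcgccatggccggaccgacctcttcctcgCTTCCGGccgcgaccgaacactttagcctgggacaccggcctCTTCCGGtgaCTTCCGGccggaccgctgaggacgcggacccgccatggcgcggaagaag
MRPL58: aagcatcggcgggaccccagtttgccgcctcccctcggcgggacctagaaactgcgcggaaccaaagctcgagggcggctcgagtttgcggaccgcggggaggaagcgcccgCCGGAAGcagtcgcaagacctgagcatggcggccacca
MRPS18C: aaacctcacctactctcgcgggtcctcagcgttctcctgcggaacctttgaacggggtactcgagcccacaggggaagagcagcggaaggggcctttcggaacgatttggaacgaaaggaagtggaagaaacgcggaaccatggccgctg
MRPL46: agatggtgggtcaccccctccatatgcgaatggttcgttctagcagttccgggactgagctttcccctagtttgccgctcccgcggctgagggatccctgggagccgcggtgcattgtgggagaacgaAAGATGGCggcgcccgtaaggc

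The YY1 letters AAGATGGC were in 22 of the 83 windows, or 26.5%, against 2.89% of all 35116 promoter windows and 4.51% of the windows of measured genes. The ETS letters CCGGAAG, the core read by factors such as GABPA, were in 32 windows, or 38.6%, against 10.3% of all windows and 16.2% of those of measured genes. The NRF1 letters were in 6 windows, or 7.23%, against 3.05% and 4.48%. The E-box CACGTG, which MYC and other factors read, was in 9, or 10.8%, against 7.26% and 9.13%. In all, 45 of the 67 genes had at least 1 of the 4 motifs. Genes with and without it had medians of 0.01 and 0.05 for YY1, 0.05 and 0.01 for ETS, 0.13 and 0.02 for NRF1, with 6 genes that had it, and 0.09 and 0.01 for the E-box.

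**Figure D5:**
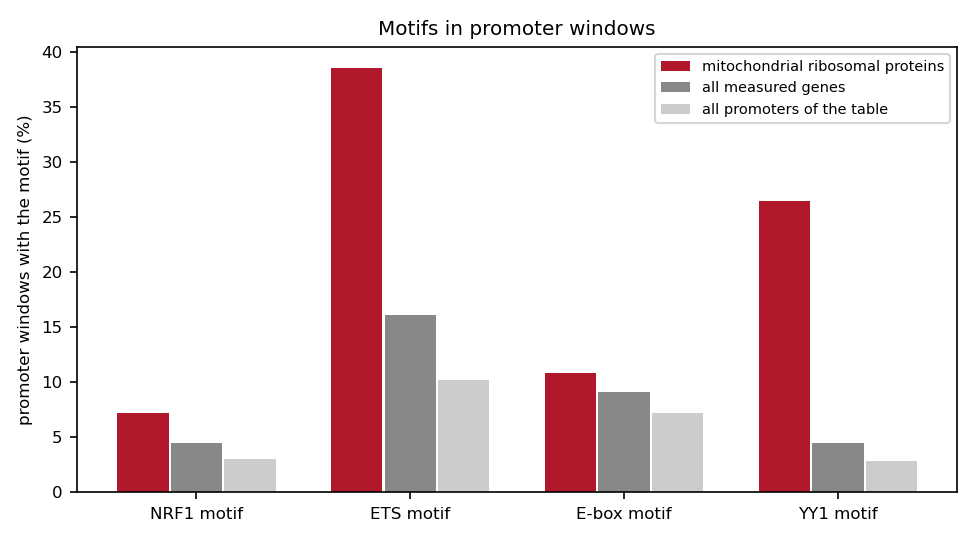
Bars give the percent of promoter windows (vertical axis, from 0) that hold each motif (horizontal axis), for the 83 windows of mitochondrial ribosomal protein genes, for the windows of all measured genes and for all windows. The YY1 bar stands at 26.5% for the mitochondrial ribosomal proteins and 2.89% for all windows, and the E-box bars are closest, at 10.8% and 7.26%.

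Some of these genes start back to back with a neighbour, and MRPL46 and MRPS11 do so with each other. Within 1000 bases of the start, 25 of the 67 genes had a gene starting on the opposite strand, or 37.3%, against 28.5% of measured genes with a window. The partner was measured in 18 pairs, and in 14 of these, or 77.8%, the log2 ratios lay within 0.3 of each other. Among 730 such pairs of other genes in the same signal range the share was 48.6%. With both genes of a pair in that range, it was 11 of 12 pairs, against 63.0% of 351 pairs. These shares were not tested, and the median of the mean log2 signals was 11.96 for the members and 10.71 for all measured genes in that range. MRPS18C and HELQ, a DNA helicase, start 175 bases apart and had log2 ratios of 0.40 and 0.32, the second probe sets of HELQ at 0.12 and -0.10. MRPL49 and FAU, which encodes a cytosolic ribosomal protein, start 49 bases apart and had 0.12 and 0.28. MRPL46 and MRPS11, a large and a small subunit gene, had -0.10 and 0.01. MRPL32 and PSMA2, a proteasome subunit, start 202 bases apart and had log2 ratios of -0.97 and -0.18, with -0.01 from the second probe set of PSMA2. The other 3 pairs that lay over 0.3 apart differed by more, all by main probe sets. MRPS16 had 0.25 and DNAJC9-AS1 -2.60, MRPL37 had -0.19 and CYB5RL 0.90, and MRPS2 had 0.09 and PIERCE1 0.94. The probe sets of CYB5RL disagreed, since its other usable ones gave -0.55, 0.14 and -2.15.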

How the data were processed

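The authors hybridised pooled RNA of GAS2DN and Venus MEG-01 cells to 1 array each and deposited log2 MAS5 signals per probe set. Per the labels MAS5 was used, and its version is not given in the sources used here. Signals were converted to the linear scale, and ratios are GAS2DN over Venus. A total of 121 probe sets on the GAS2DN array and 358 on the Venus array were at a log2 value of 0, and 62 control probe sets were left out. Depth does not apply to arrays, and their number limits the precision. Members and gene lists were chosen with earlier results of these data known. Symbols were updated through Entrez IDs with a RefSeq table. The main probe set of a gene had the largest mean of the 2 log2 signals, and those ending in _x_at were passed over where another existed.

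Named by rule were the 4 highest and 4 lowest genes of each subunit, genes with 2 or more probe sets over 1.5-fold the same way, genes whose probe sets differed by over 1, the MRPS18 paralogs, and up to 4 genes over 1.5-fold in each other list. All other genes were named after their values were seen. The cell type markers were fixed lists. The 13 alternatives changed the filter, the scaling (quantile, centring, or loess at span 0.2 in 3 iterations), the choice of probe set, low signals, symbols and the subunit of 2 genes. The background within the members' signal range, and that of divergent pairs, were added after seeing the data. The steps were tested on simulated data. Scripts ran in Python 3.11.15 (pandas 2.3.3, numpy 2.4.6, statsmodels 0.14.6, matplotlib 3.10.9).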

Additional observations from a re-analysis of the deposited data

How the results depend on the processing

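The median log2 ratio of all members lay between -0.05 and 0.03 over 12 alternatives, and every one stayed within 0.1 of the reported 0.03, although it crossed 0. The choice of probe set moved the results most. With _s_at and _x_at probe sets dropped, 42 genes were left, 18 of them above 0 and 4 over 1.5-fold lower (MRPL12, MRPL42, MRPS5 and MRPS15), and the small-subunit median was -0.12. Of these 4, only MRPL42 was read by a probe set that reached the median on both arrays. Those of MRPL12, MRPS5 and MRPS15 passed through the Venus array only, on which they were high. By the second-brightest probe set, 31 genes were left, 13 of them above 0, with 2 over 1.5-fold higher (MRPL41 and MRPL47) and 3 lower (MRPL12, MRPL38 and MRPS11). In this setting MRPL47 passed through the GAS2DN array only, and MRPL12 and MRPL38 through the Venus array only, each through the array on which it was high. There the large-subunit median was -0.0893 and the large minus small difference -0.0892, the opposite sign to the reported 0.07. By the median over probe sets, 2 genes were over 1.5-fold higher (MRPL41 and MRPL47) and 3 lower (MRPL32, MRPL38 and MRPL44). The medians of MRPL38, MRPL41 and MRPL47 took in probe sets that reached the array median on 1 array only. Both of the first settings test fewer genes and leave out MRPL32, so its value of -0.97 rests on 1 probe set; it was -0.95 to -1.03 wherever it was measured. After centring, 2 genes were over 1.5-fold lower (MRPL32 and MRPS34). The filters, low signals, loess, quantile normalization and symbols left these counts and medians within their limits. No paired analysis was possible because each condition has 1 array. Dim signals limit the second readings, since the SD was 1.40 over the 27 probe sets with a mean log2 signal under 8.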
